A study of Danio rerio with 4 samples.

Results

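Hepatocytes of zebrafish (Danio rerio) larvae lacking zc3h8 were compared with wild-type hepatocytes at 5.5 days post fertilization (dpf), with 1 library for each genotype. Genes were taken into the comparison where both libraries held 10 or more reads per 1000000 counted reads (RPM) in the authors' table for this stage. That rule left 4010 genes of the 14068 listed for 5.5 dpf and of the 33737 in the series. The measure throughout is log2 of mutant over wild type, so that a positive value is a higher share of reads in the mutant library. The larvae of the mutant group were zc3h8-/- and those of the control group wild type, both of strain ABGO. Both groups carried Tg(lfabp:Dendra2-NTR), in which a liver fatty acid binding protein promoter drives a fluorescent protein joined to a nitroreductase and so marks hepatocytes. After dissection, livers were dissociated with trypsin and the fluorescent cells sorted by flow cytometry. Their RNA, extracted with Trizol, went into Smart-seq2, a protocol that amplifies full-length cDNA by PCR. How many larvae were pooled in a library is not stated. Libraries of both genotypes at 7.5 dpf complete the series of 4.

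Hepatocytes make most plasma proteins, among them apolipoproteins, transferrin, complement and clotting factors, and they hold the enzymes that make sterols, burn fatty acids, store glycogen and oxidize foreign compounds. Zc3h8 is a zinc finger protein of the CCCH kind, and many proteins of this kind bind RNA. In mammalian cells ZC3H8 is also known as a part of the little elongation complex, which helps RNA polymerase II to transcribe the small nuclear RNAs of the splicing machinery. The title of the series names inflammation and the survival of hepatocytes as its subjects. Roles of the genes below are those known for the proteins of the same name, mostly from mammals and yeast.

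With 1 library per genotype there was no spread between replicates, and no test of a gene or a family was made at 5.5 dpf. All differences are sizes in these libraries. A gene is called higher or lower where it differed by 2-fold or more. Each size has a 95% counting interval (exact, from the reads of the gene in both libraries), given for the main genes. It covers counting error only, since PCR reads without molecular identifiers are not independent molecules. The wild-type library held 35960983 reads on genes and the mutant library 36353835, and the 10 most abundant genes took 32.1% and 29.0% of them. At this depth counting error was small. A kept gene had at least 360 reads in wild type and 364 in the mutant, and the upper bound of the interval was 1.15 times the lower one in the median gene. The symbol zc3h8 matched no ID. The level of the targeted gene therefore gave no check of the genotype labels.

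Markers of hepatocytes were abundant in both libraries but lower in the mutant. Of 12 such markers 11 were listed, none of them at 0, and their summed level was 103839 RPM in wild type and 48670 in the mutant. Most of both sums was apoa2, tfa, fetub and fabp10a. Of the 10 markers that were kept, 4 were lower and 0 higher, beside 11.6% and 26.3% of all kept genes. The rest of the 10 were within 2-fold, among them apoa2 at 43792 and 25256 RPM and serpina1 at 1280 and 1037. The gene hnf4a, which encodes a nuclear receptor that sets hepatocyte identity, had 31.6 and 6.82 RPM and so missed the minimum. Markers of other cells differed too. Summed exocrine pancreas markers went from 440.5 RPM in wild type to 47.8 in the mutant, where 6 of 9 listed markers were at 0. The macrophage markers had a sum of 28.1 in wild type, with 3 of 6 IDs at 0, and of 178 in the mutant, with none at 0, and lygl1 made up 140.0 of the latter. Neutrophil markers summed to 5.76 and 42.7, where mmp13a alone held 33.0 in the mutant and lyz was at 0 there. Biliary markers, which include epcam and tm4sf4, summed to 829.7 and 1679. Stellate and mesenchymal ones summed to 155 and 274. Of the 4 kept, 3 were higher and col1a2 was lower, at 78.4 and 12.4. Erythroid ones summed to 7.06 and 10.8, with hbae3 at 4.45 and 10.8 and hbae1.1 at 2.61 and 0. Intestinal ones summed to 73.9 in both, where opposite differences cancelled: fabp2 had 54.3 and 30.2, and vil1 19.6 and 43.6. For skin, muscle and lens the sums were 9034 and 17083, most of it krt4. No endothelial marker was listed. The part of other cells in the results below was not tested. In such bulk samples fewer cells of a type and less RNA per cell cannot be told apart.

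The comparison leaned toward the mutant in number of genes. Of the 4010 kept genes 1055 (26.3%) were higher in the mutant and 464 (11.6%) were lower, so that 37.9% were past 2-fold in either direction, and 2491 differed by less. A 4-fold rule left 213 higher (5.31%) and 85 lower (2.12%). The counting interval lay wholly beyond 2-fold for 918 and 396 genes, and for 260 it took in a ratio of 1. The median log2 ratio was 0.33, with quartiles at -0.40 and 1.04, and 2493 genes (62.2%) lay above 0. Because RPM values sum to the same total in each library, this lean rests on the scaling. With ratios centred on their median, 677 genes (16.9%) were higher and 729 (18.2%) lower. A family median between 0 and 0.33 is thus above 0 as scaled and below the median gene, and it is called neither higher nor lower here. Counts of higher and lower genes in a family are to be read beside the 26.3% and 11.6% of all kept genes.

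**Figure D1:**
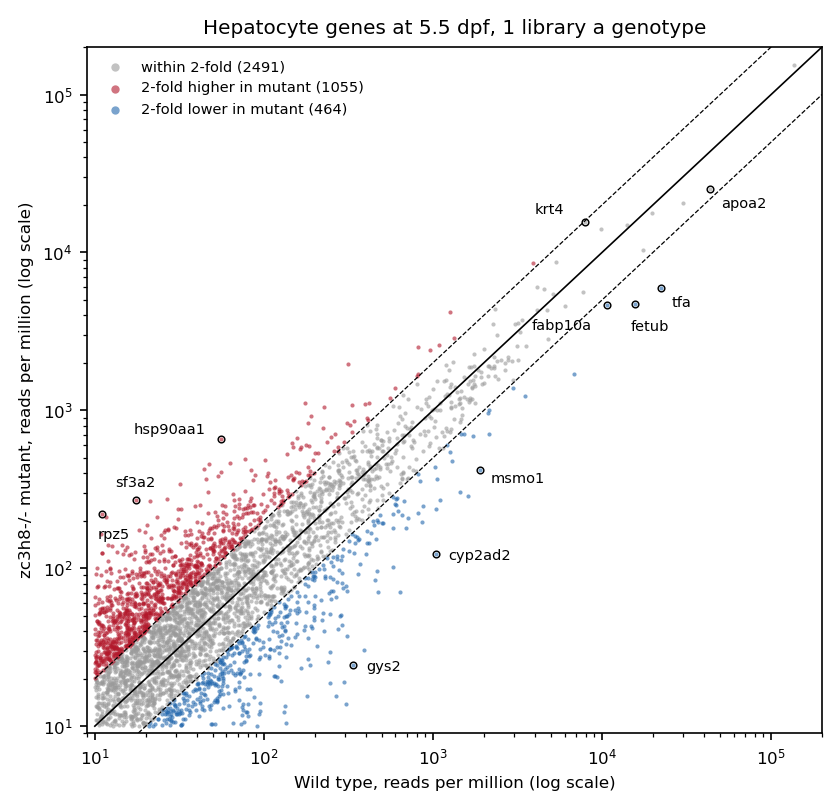
RPM of the 4010 kept genes in the wild-type (x) and mutant (y) library at 5.5 dpf, both on log scales, with equality as a solid line and 2-fold as dashed lines. Red points are the 1055 genes higher in the mutant and blue points the 464 lower, and the labelled genes are described in the text.

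The lean differed with abundance. Genes with a mean of 30 to 100 RPM had a median log2 ratio of 0.54, and 33.4% of these 1738 genes were higher. Among the 102 genes between 1000 and 3000 RPM the median was -0.24 and 7.84% were higher, and among the 28 genes at 3000 or more 3.57% were higher and 14.3% lower. Ratios varied little with gene length, the medians of 4 classes of length lying between 0.23 and 0.43. The shares of reads showed the same: the abundant secreted and metabolic genes took a smaller share of the mutant library, as given below, and genes of middle abundance a larger one. The most abundant gene, ENSDARG00000080337, which has no annotation here, had 137413 and 154443 RPM. The least abundant kept genes, at a mean of 10 to 30 RPM, had a median of 0.29 with 21.1% higher, but the minimum in both libraries removes strong differences there. Outside the minimum, 1637 listed genes reached 10 RPM in wild type alone and 1897 in the mutant alone. Of these 798 and 628 had 3 reads or fewer in the other library.

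**Figure D2:**
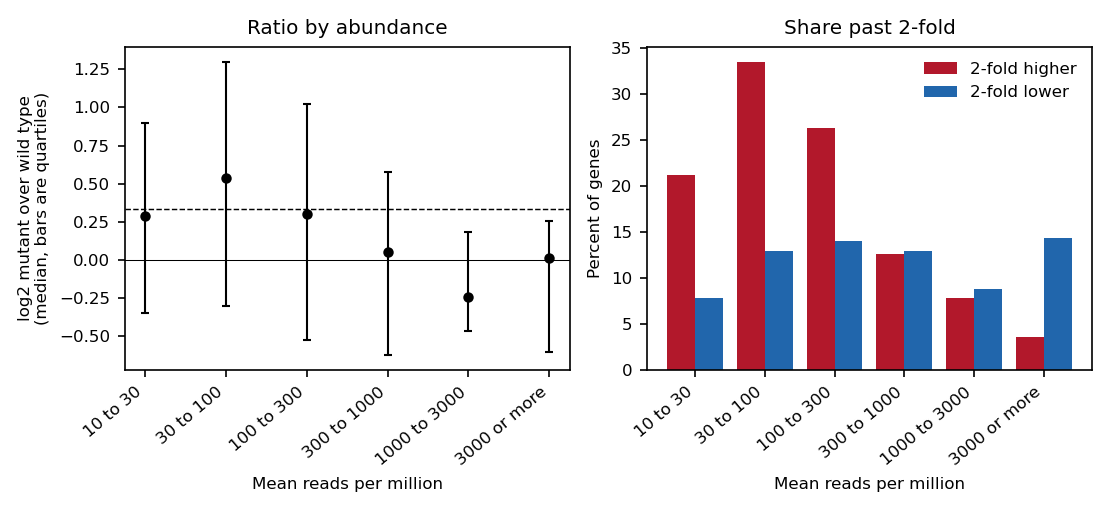
Log2 ratio of mutant over wild type in 6 classes of mean RPM, as the median and the range between quartiles on the left, with the percent of genes higher (red) and lower (blue) on the right. The median is 0.54 at 30 to 100 RPM, -0.24 at 1000 to 3000 and 0.01 in the class of 3000 or more.

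The highest ratios, among the 1420 genes with 100 or more RPM in at least 1 library, belonged to genes of mixed function. First came rpz5, a gene without description, at 11.1 RPM in wild type and 222 in the mutant, 20.1-fold higher (interval 18.1 to 22.2). The gene sap30bp, whose product binds the histone deacetylase subunit SAP30, had 11.6 and 212 RPM (18.2-fold higher, 16.5 to 20.2). For sf3a2, a subunit of the U2 snRNP that recognizes the branch site of introns, the values were 17.6 and 272 (15.5-fold, 14.3 to 16.8). Splicing was also the work of luc7l, a U1 snRNP-associated protein (21.3 and 267, 12.5-fold), and of lsm4, a ring subunit on the U6 small nuclear RNA (18.2 and 175, 9.63-fold). The heat shock protein gene hsp90aa1, an inducible cytosolic chaperone, had 55.7 and 662 (11.9-fold, 11.4 to 12.4). The second largest subunit of RNA polymerase II (RPB2, ENSDARG00000012592) stood at 11.1 and 126 (11.3-fold).

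Other genes of the 15 highest fell in several classes. The adapter protein gene crk, which links receptors to kinases, had 10.9 RPM in wild type and 165 in the mutant (15.1-fold higher). Amino acid transport was represented by slc3a2, the heavy chain shared by several amino acid exchangers, at 11.9 and 139.8 (11.7-fold). A mitochondrial ribosomal protein gene, zgc:171480 (described as L55), had 11.1 and 124 (11.2-fold). Further ones were adipor1, an adiponectin receptor whose symbol has more than 1 ID, at 12.6 and 138 RPM, the histone-binding protein gene rbb4l at 26.9 and 275, the F-box gene fbxo8 at 10.3 and 101, and pum3, which encodes a nucleolar RNA-binding protein, at 14.4 and 139.6. All of these had wild-type values close to the minimum or a few times above it. Ranking by the ratio favours genes of low level in wild type, so this low level is in part set by the rule.

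The 15 lowest ratios also belonged to genes of mixed function, several of them enzymes. Monoamine oxidase (mao), which oxidizes amines such as serotonin, had 268 RPM in wild type and 15.6 in the mutant, 17.2-fold lower (interval 15.8 to 18.8). The late sterol synthesis enzyme sc5d had 298 and 19.01 (15.7-fold, 14.53 to 17.0). Liver glycogen synthase (gys2) had 338 and 24.5 (13.8-fold, 12.9 to 14.8). One of the adenosine kinase genes (adk, ENSDARG00000039429) had 392 and 30.3 (12.9-fold), while a second ID of that symbol, ENSDARG00000095947, had 28.1 and 18.7, and reads of such copies may be split in counting. An acyl-CoA ligase gene (acsbg1, described as ACSBG2) had 132 and 12.4 (10.7-fold), and a desaturase gene (fads3, described as fatty acid desaturase 2) 241 and 25.5 (9.45-fold).

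There were 3 cytochrome P450 genes, which oxidize foreign compounds, among the 15 lowest. The P450 gene cyp2ad2 had 1041 RPM in wild type and 122.9 in the mutant (8.47-fold lower, 8.21 to 8.74), cyp2ad3 had 641 and 71.1 (9.01-fold), and ENSDARG00000070017 (P450 2J5) 179 and 15.6 (11.5-fold). The histidine breakdown enzyme amdhd1 had 245 and 29.4 (8.33-fold). Secreted proteins were represented by itih3a.1, a heavy chain of the inter-alpha-trypsin inhibitors, at 309.8 and 37.0 (8.37-fold), and by ENSDARG00000031855, described as hepatocyte growth factor-like, at 247 and 18.9 (13.1-fold). Others were atg13, which starts autophagosome formation, at 134 and 10.4, and the heme-binding protein gene soul5 at 133 and 13.4. Of the 14 genes named here, 12 had more than 130 RPM in wild type and less than 40 in the mutant. A low level in the mutant is likewise favoured by the ranking.

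**Figure D3:**
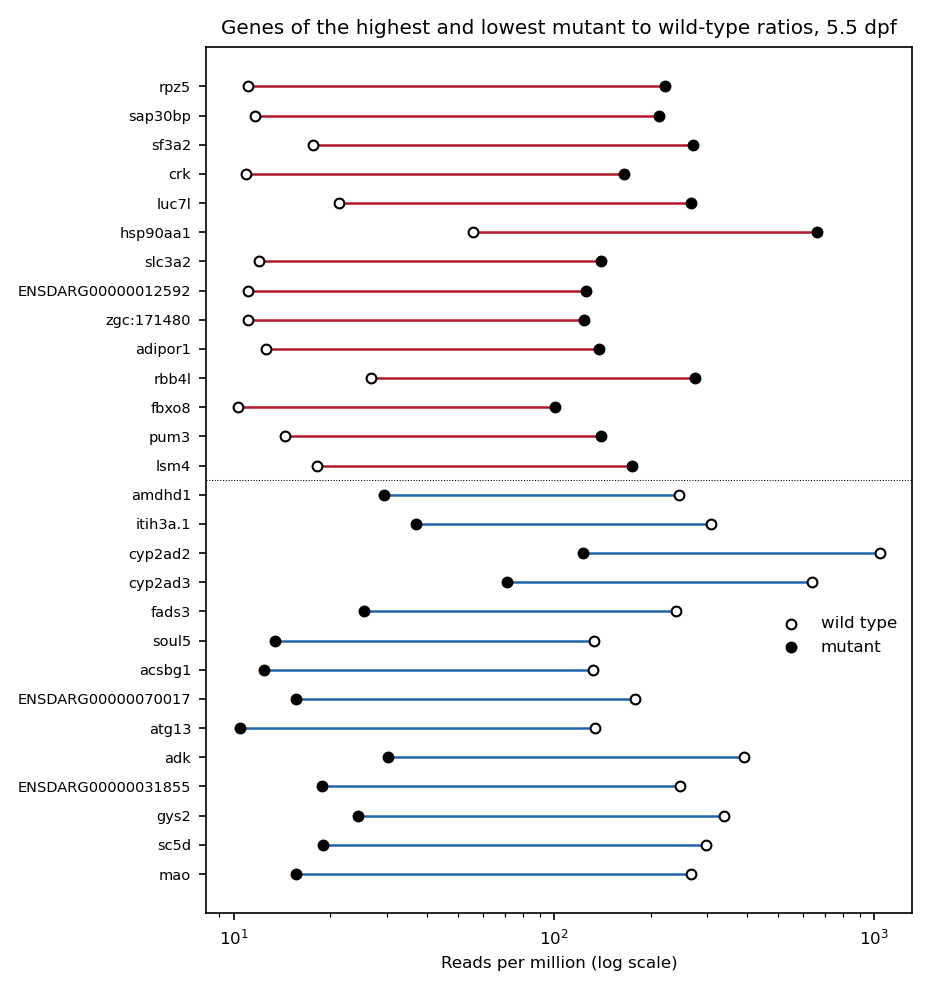
RPM on a log scale in the wild-type (open circles) and mutant (filled circles) library for 14 of the 15 genes with the highest and 14 of the 15 with the lowest ratio at 5.5 dpf, among those with 100 or more RPM in 1 library. For rpz5 at the top the values are 11.1 and 222, and for mao at the bottom 268 and 15.6.

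Genes grouped under the role of secreted proteins took 19% of wild-type reads and 11.3% of mutant reads. Beside plasma proteins, this role takes in families with proteins that stay in cells, such as ferritins and fatty acid binding proteins. The 96 kept genes of this role had a median log2 ratio of -0.46, with 10 higher and 33 lower (34.4%, against 11.6% of all kept genes). They did not move as 1 block. Inter-alpha-trypsin inhibitors, fetuins and alpha-2-macroglobulins, which inhibit proteases or bind minerals in plasma, had the lowest median of the 67 families at -1.71, with 11 of 14 kept genes lower and 0 higher. The fetuin gene fetub had 15602 RPM in wild type and 4731 in the mutant (3.30-fold lower, 3.28 to 3.32). Its relative ahsg2, alpha-2-HS-glycoprotein, had 584 and 102 (5.75-fold), and the alpha-2-macroglobulin gene ENSDARG00000041685 had 289 and 43.5 (6.66-fold). Within the family ambp, the precursor of the light chain bikunin, differed less, at 2339 and 1653 (1.42-fold), and the fetuin gene si:ch211-262h13.5 was the one member above 0, at 14.02 and 18.3.

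Apolipoproteins, which carry lipids in plasma, had a median of -0.70, with 4 of 13 kept genes lower and 1 higher. The most abundant gene with a symbol, apoa2, had 43792 RPM in wild type and 25256 in the mutant (1.73-fold, inside the 2-fold limit). The structural proteins of very low density lipoprotein differed more. For apobb.1 the values were 696 and 181 (3.85-fold lower), for apob 420.1 and 145 (2.91-fold), and for apoc1, which modulates lipoprotein uptake, 581 and 181 (3.21-fold). A member of the A-IV group, apoa4b.2, was the lowest at 1040.2 and 239 (4.35-fold). Against these stood apoeb, the ligand of lipoprotein receptors, which was higher at 99.2 and 229 (2.31-fold). Summed over the family, RPM were 83764 in wild type and 51420 in the mutant.

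Of the complement genes, whose proteins mark and lyse microbes, 10 of 23 were lower and 2 higher (median -0.40). The lower ones included the opsonin gene c3a.2 at 282 and 50.0 RPM (5.64-fold) and the terminal pathway genes c8g (451 and 84.1, 5.37-fold), c5 (201 and 66.9, 3.002-fold) and c9 (1033 and 441, 2.34-fold). The 2 higher ones, c4b and c6.2, had low levels: 39.8 and 83.1 for the former, 10.3 and 35.2 for the latter. Clotting proteins parted by type. The fibrinogen chains, which form the clot, were near to or above 0, with fga at 1183 and 1239, fgb at 1154 and 1539.9, and fgg at 4117 and 6043 (1.47-fold, also inside 2-fold). The vitamin K-dependent factor f9 was lower at 183 and 87.3 (2.097-fold). Also lower was proc, the anticoagulant protein C, at 285 and 112 (2.54-fold), and its symbol is shared with another ID. The family's count was 3 of 12 lower and 0 higher (median -0.40).

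Protease inhibitors of the serpin family had a median of 0.01, with 3 of 16 higher and 2 lower. The abundant serpina1l (alpha-1-antitrypsin) had 6043 RPM in wild type and 4561 in the mutant, and serpinc1 (antithrombin) 2787 and 2088, both within 2-fold. The serpin gene serpina10b was lower at 48.4 and 10.3 (4.70-fold). Iron proteins went both ways. Transferrin (tfa), the iron carrier of plasma, had 22414 and 5969 (3.75-fold lower, 3.74 to 3.77), whereas the ferritin gene fthl27, which stores iron in cells, had 264 and 712 (2.70-fold higher). Ceruloplasmin (cp), the copper-bearing ferroxidase of plasma, had 365 and 205. Carriers of fatty acids, vitamin A and thyroid hormone had 2 of 9 higher and 2 lower (median -0.53). The liver fatty acid binding protein fabp10a had 10628 and 4679 (2.27-fold lower). The highest was ENSDARG00000016235, described as retinol-binding protein 1, at 19.1 and 90.7 (4.75-fold higher). Within 2-fold were ENSDARG00000077505, described as retinol-binding protein 4-A, at 7722 and 5621, and transthyretin (ttr) at 649 and 393. Transthyretin carries thyroid hormone and the retinol carrier.

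Metabolic enzymes took 10.5% of wild-type and 7.77% of mutant reads, and of the 256 kept genes 30 were higher and 63 lower (24.6%), with a median of -0.42. Cytochrome P450 genes had a median of -1.55, with 15 of 26 lower and 1 higher. Of the 58 listed P450 genes, another 16 reached 10 RPM in wild type alone and 0 in the mutant alone. Among all 14068 listed genes these counts were 1637 and 1897. Beside the genes named above, ENSDARG00000045627 (P450 3A27) had 274 RPM in wild type and 41.3 in the mutant (6.64-fold lower), and cyp2n13 had 876 and 246 (3.56-fold). Exceptions were the dioxin-inducible P450 1A1 (ENSDARG00000026039) at 1005 and 1362, the bile acid enzyme cyp8b1 at 262 and 228, and cyp2v1, the 1 higher gene, at 19.2 and 40.4. Within the cyp2ad group, cyp2ad6 had 21.5 and 24.7, against the 8.47-fold and 9.01-fold lower values of cyp2ad2 and cyp2ad3. Conjugating enzymes differed less: glutathione S-transferases, UDP-glucuronosyltransferases and sulfotransferases had a median of -0.31, with 5 of 28 lower and 2 higher.

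Sterol synthesis enzymes were the family with the third lowest median, -1.47, and 8 of 11 were lower with 0 higher. Of the early steps, mvk (mevalonate kinase) had 64.0 RPM in wild type and 31.2 in the mutant (2.05-fold lower), and idi1, which makes the isoprenoid unit, had 183 and 26.5 (6.90-fold). Farnesyl pyrophosphate synthase (fdps) had 652 and 216 (3.02-fold) and squalene epoxidase (sqle) 122.9 and 29.1 (4.22-fold). After the ring is closed, cyp51a1, counted with the P450 genes, had 866 and 196 (4.41-fold), msmo1 1904 and 418 (4.55-fold), ebp 193 and 94.8 (2.03-fold) and sc5d the 15.7-fold lower value above. The enzymes within 2-fold were hsd17b7 at 150.3 and 75.6, tm7sf2 at 193 and 138, and acat2 at 141 and 130.2. The transcription factor gene srebf2, whose protein activates sterol synthesis genes, was higher at 11.7 and 53.7 (4.59-fold), so that it stood on the other side from the enzymes.

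Enzymes of fatty acid oxidation had a median of -0.35, with 7 of 30 lower and 2 higher. Peroxisomal members were among the lower ones: the multifunctional enzyme type 2 (ENSDARG00000031873) had 207 RPM in wild type and 32.3 in the mutant (6.40-fold), the thiolase acaa1 256 and 71.3 (3.59-fold), and decr2 76.3 and 20.6 (3.70-fold). A membrane channel of peroxisomes, pxmp2, had 187 and 24.4 (7.65-fold lower). Of mitochondrial members, the carnitine acyltransferase cpt1ab, which admits fatty acids to mitochondria, was lower at 71.4 and 19.1 (3.75-fold), acadm (medium-chain dehydrogenase) was close to equal at 984 and 1011, and etfdh, which passes electrons from fatty acid oxidation to the respiratory chain, was higher at 57.6 and 207 (3.59-fold). For lipid synthesis the median was -0.74 with 4 of 15 lower and 0 higher. Among them the elongase elovl2 had 132 and 49.1 (2.68-fold lower).

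Genes of sugar metabolism differed in both directions, also among liver forms of enzymes. The family of glycolysis and gluconeogenesis had a median of -0.15. Of its 20 genes 5 were higher (25%, near the 26.3% of all kept genes) and 4 lower (20%, against 11.6%). Pyruvate kinase of the liver (pklr) had 1621 RPM in wild type and 286 in the mutant (5.67-fold lower, 5.55 to 5.79). Fructose bisphosphatase (fbp1b), an enzyme of gluconeogenesis, had 1717 and 683 (2.51-fold). On the higher side stood the muscle form aldoa at 77.1 and 307 (3.98-fold), eno1 at 50.5 and 185 (3.66-fold), hk1 at 13.01 and 31.9 (2.45-fold) and gapdhs at 62.8 and 462 (7.36-fold). Symbols aldoa and eno1 are carried by more than 1 ID. For gapdh and gapdhs, which catalyse the same step, the authors' RPKM, a level per length, was 8831 and 43.2 in wild type and 5277 and 318 in the mutant. Of liver genes, the gluconeogenic gene pck1 was higher at 1260.4 and 4219 (3.35-fold). Glycogen enzymes parted as well, with the synthase gys2 13.8-fold lower and the phosphorylase pygl, which releases glucose from glycogen, at 598 and 1387 (2.32-fold higher).

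The family of amino acid breakdown and urea cycle enzymes had a median of -0.44, with 5 of 24 lower and 1 higher. It does not take in amdhd1, given above, or tdo2, a tryptophan dioxygenase at 503 RPM in wild type and 193 in the mutant (2.60-fold lower). The lowest in the family was ftcd, of histidine breakdown, which had 816 RPM in wild type and 224 in the mutant (3.64-fold lower). In the same pathway amdhd1 was lower still, and uroc1, which acts before it, had 271 and 119.6 (2.26-fold). The tyrosine pathway enzyme hgd had 813 and 395 (2.06-fold). The higher one was arg2, an arginase that splits arginine into ornithine and urea, at 226 and 1054 (4.66-fold, 4.55 to 4.77). In the methionine and one-carbon cycle 3 of 14 were lower and 2 higher (median -0.49). There gamt, which makes creatine, had 3482 and 1239 (2.81-fold lower), and bhmt, which remethylates homocysteine, had 4131 and 4345. Alcohol and aldehyde dehydrogenases had a median of -0.82 with 6 of 20 lower and 1 higher, for example aldh2.2 at 613 and 279 (2.198-fold lower). Of transporters, slc7a2, which takes up cationic amino acids, was lower at 94.9 and 14.03 (6.77-fold), and the liver glucose transporter slc2a2 was within 2-fold at 225 and 119.7. Solute carriers as a family held 14 higher of 46 (30.4%, against 26.3% of all kept genes) and 4 lower, with a median of 0.20.

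**Figure D4:**
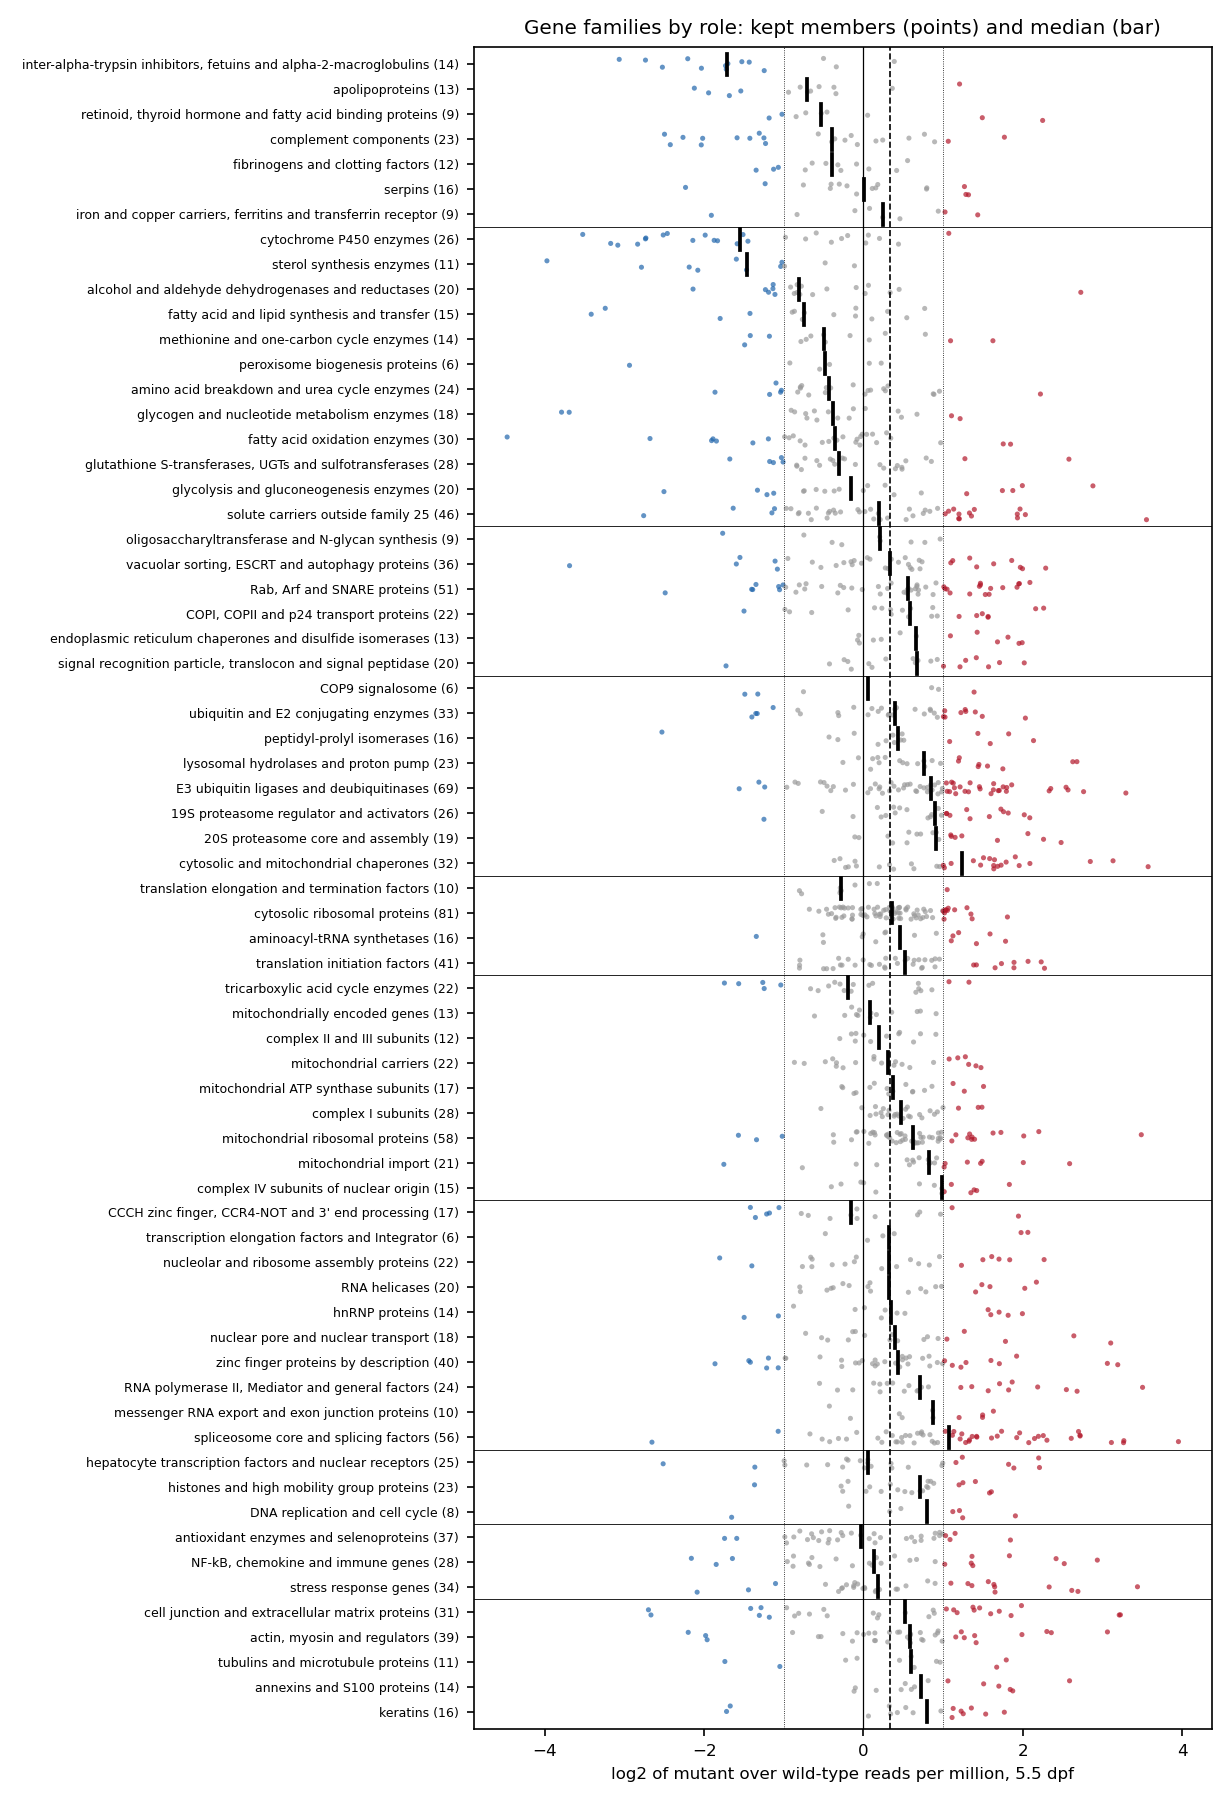
Log2 ratio of mutant over wild type at 5.5 dpf (x) of the kept genes (points; red higher, blue lower, grey within 2-fold) of 67 gene families, grouped by role with the number of kept genes in brackets. Short black bars are family medians, dotted lines 2-fold and the dashed line the median of all kept genes, 0.33. Medians range from -1.71 among secreted proteins to 1.24 for chaperones.

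Genes that act on RNA stood on the other side. The 223 kept genes of this role took 1.37% of wild-type and 1.97% of mutant reads, with a median of 0.58. Of them 77 were higher (34.5%) and 15 lower (6.73%), against 26.3% and 11.6% of all kept genes. Genes with a mean of 30 to 100 RPM, where most families of this role had their median level, held 33.4% higher and 12.9% lower. The spliceosome and splicing factors, which remove introns, held the most higher genes of the role. There 29 of 56 were higher (51.8%, against 26.3% of all kept genes) and 2 lower, with a median of 1.07. Centred on the median of all genes, 21 were higher and 3 lower. The sum over the family was 2248 RPM in wild type and 5598 in the mutant. Several of the ring proteins around the spliceosomal RNAs were among the highest. For lsm7 the values were 47.5 and 456 (9.60-fold higher, 9.13 to 10.1), for lsm8 19.7 and 170.1 (8.64-fold), and for the Sm protein snrpd2 46.7 and 303 (6.49-fold). Other ring proteins were within 2-fold, such as lsm2 (log2 0.23) and the Sm protein snrpb (0.64). Beside sf3a2, further U2 components were sf3b4 at 25.8 and 169.7 (6.57-fold) and snrpa1 at 24.7 and 163 (6.58-fold), and the tri-snRNP protein gene snrnp27 had 101 and 484 (4.78-fold). The catalytic centre protein prpf8 had 15.2 and 63.9 (4.21-fold). The 2 lower genes were sf1, which binds the branch point first, at 65.6 and 10.4 (6.29-fold), and the U1 protein snrpa at 26.2 and 12.5 (2.0998-fold).

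In transcription, RNA polymerase II, Mediator and the general factors had 10 of 24 higher and 0 lower (median 0.71). Examples are the polymerase subunits polr2c at 12.1 and 77.4 RPM (6.41-fold higher) and polr2l at 19.5 and 88.7 (4.55-fold), and the TFIID subunit taf10 at 20.2 and 118 (5.84-fold). The elongation factors and Integrator, the class nearest to the known partners of ZC3H8, left only 6 of 33 listed genes above the minimum. Of those, eaf1, a partner of ELL proteins, was higher at 14.7 and 61.5 (4.18-fold), and so was ccnt2, a cyclin of the elongation kinase, at 21.4 and 84.1 (3.94-fold). The kinase gene cdk9 had 41.7 and 54.5, ell2 43.7 and 45.2, the scaffold gene aff4 90.7 and 65.1, and snapc4, which binds small nuclear RNA promoters, 15.4 and 18.3, all within 2-fold. The CCCH zinc finger genes with the CCR4-NOT and 3' end processing factors were the RNA family with the lowest median, -0.16, and 5 of 17 were lower and 2 higher. In it zfp36l2, which speeds the decay of AU-rich messenger RNAs, had 79.1 and 29.6 (2.67-fold lower) and zc3h15 56.4 and 24.9 (2.27-fold). The abundant TIS11 gene (ENSDARG00000044395) had 1473 and 1319.7.

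Of the other RNA families most had medians near that of all genes, with messenger RNA export and the exon junction above it. The nuclear pore and transport family had 5 of 18 higher (27.8%, near the 26.3% of all kept genes) and 0 lower (median 0.39). There nup50 had 15.2 and 130.1 RPM (8.59-fold higher) and the export receptor xpo1a 14.1 and 88.0 (6.23-fold). RNA helicases had 5 of 20 higher (25%) and 0 lower (median 0.33). For hnRNP proteins it was 5 of 14 higher (35.7%) and 2 lower (0.35), and for nucleolar proteins 6 of 22 higher (27.3%) and 2 lower (0.32). In the nucleolus the methyltransferase fbl (fibrillarin), which modifies ribosomal RNA, had 27.6 and 133 (4.81-fold higher), and wdr12, which assembles the large ribosomal subunit, 44.4 and 12.7 (3.49-fold lower). Proteins of messenger RNA export and the exon junction had 4 of 10 higher and 0 lower (median 0.87). The 40 genes described as zinc finger proteins spread widely, from znf207 at 23.3 and 212 (9.13-fold higher) to znf598 at 52.8 and 14.52 (3.64-fold lower), with 9 higher and 6 lower.

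Protein folding and breakdown held the largest share of higher genes of any role, 89 of 224 (39.7%) with 11 lower, a median of 0.84, and 2.53% of wild-type against 3.93% of mutant reads. Cytosolic and mitochondrial chaperones had the highest family median, 1.24, with 19 of 32 higher (59.4%) and 0 lower, and 16 higher and 0 lower when centred. The lowest of the family was bag3, a chaperone regulator, within 2-fold at 59.0 RPM in wild type and 45.7 in the mutant. Several heat-inducible genes were among the higher ones. Beside hsp90aa1, hsp70.3 had 146 RPM in wild type and 620.5 in the mutant (4.25-fold higher) and hsp70l 137 and 529 (3.87-fold). Their constitutive relatives differed little, with hsp90ab1 at 1061 and 998 and hspa8 (ENSDARG00000068992, a shared symbol) at 4534 and 5891. Of the ring chaperonin that folds actin and tubulin, cct7 had 106 and 398 (3.75-fold) and cct2 20.7 and 58.8 (2.84-fold), while cct6b had 211 and 196. In mitochondria the co-chaperone dnaja3 had 15.5 and 135 (8.76-fold) and the co-chaperonin hspe1 185 and 594 (3.21-fold), whereas its partner hspd1 had 448 and 365.

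The proteasome, which degrades ubiquitin-tagged proteins, was higher in many subunits of both its parts. In the family of the catalytic core and its assembly factors 8 of 19 genes were higher (42.1%, against 26.3% of all kept genes) and 0 lower (median 0.91). In that of the regulatory cap and the proteasome activators 11 of 26 were higher (42.3%) and 1 lower (median 0.90). Core examples are psmb1 at 23.5 and 131 RPM (5.58-fold higher, 5.18 to 6.01) and psmb3 at 86.5 and 362 (4.18-fold). In the cap psmd12 had 34.8 and 148 (4.25-fold) and the ATPase psmc5 151 and 370.2 (2.45-fold), and psmd1 was the 1 lower subunit at 133 and 56.1 (2.38-fold). Centring left 4 higher in the core family and 7 higher and 1 lower in the cap family. Ubiquitin ligases and deubiquitinases had 28 of 69 higher (40.6%) and 3 lower (median 0.84). Among them usp14, which trims ubiquitin chains at the proteasome, had 11.4 and 77.5 (6.78-fold), usp5, which recycles free chains, 23.4 and 136 (5.82-fold), and rnf2, a ligase for histone H2A, 22.7 and 135 (5.92-fold). Ubiquitin and its conjugating enzymes were closer to the median of all genes at 0.39, with 9 of 33 higher and 4 lower. The family of lysosomal hydrolases and the proton pump had 8 of 23 higher and 0 lower (median 0.76). Among the higher were the pump subunits atp6v1f at 77.2 and 494 (6.40-fold) and atp6v0b at 29.4 and 181 (6.17-fold). Another was the protease ctsd at 84.2 and 228 (2.71-fold). Outside the family, lipa, described as a putative lysosomal acid lipase, was lower at 475 and 197 (2.41-fold).

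Chaperones of the endoplasmic reticulum, where secreted proteins fold, had 6 of 13 higher and 0 lower (median 0.66). The disulfide isomerase pdia4 had 166 RPM in wild type and 582 in the mutant (3.51-fold higher), manf, a factor secreted under folding stress, 71.0 and 275 (3.87-fold), creld2 17.6 and 69.98 (3.98-fold) and hyou1 82.8 and 265 (3.21-fold). The lectin chaperones were close to equal, with canx at 324 and 311 and calr at 213 and 205. Transcription factors that act in folding stress were also close to equal, with xbp1 at 604 and 559.9, atf4b at 314 and 318, and ddit3 at 185 and 159.9. Later steps of secretion showed a like split. COPI, COPII and p24 proteins had 7 of 22 higher (31.8%, against 26.3% of all kept genes) and 1 lower (median 0.58). There copa had 56.4 and 252 (4.47-fold higher) and tmed5 57.2 and 20.2 (2.83-fold lower). Rab, Arf and SNARE proteins had 16 of 51 higher (31.4%) and 7 lower (13.7%, against 11.6%), with a median of 0.56. The lowest was rab10 at 74.1 and 13.2 (5.61-fold). Glycan transfer had rpn2 lower at 711 and 209 (3.403-fold), beside 0 higher of 9.

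Ribosomal protein genes differed little. Of the 81 kept ribosomal protein genes 12 were higher and 0 lower, their median of 0.36 was near that of all genes, and their sum was 51987 RPM in wild type and 52464 in the mutant. Centring left 3 higher and 1 lower. The highest was ENSDARG00000090186 (S27-like) at 223 and 779 RPM (3.50-fold), and the lowest rpl7a at 1774 and 1108 (log2 -0.68). Initiation factors had 9 of 41 higher and 0 lower (median 0.52), among them the cap-binding gene eif4e1c at 40.4 and 195 (4.83-fold) and eif5b, which joins the ribosomal subunits, at 27.3 and 128 (4.69-fold). The abundant elongation factor eef1a1l1 had 4817 and 2812 (log2 -0.78, inside 2-fold). Aminoacyl-tRNA synthetases had 6 of 16 higher (37.5%) and 1 lower (median 0.46), from sars1, which charges serine tRNA, at 15.02 and 51.7 (3.44-fold higher) to gars1, which charges glycine tRNA, at 47.6 and 18.7 (2.54-fold lower).

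The 208 kept mitochondrial genes held 39 higher (18.8%, below the 26.3% of all kept genes) and 9 lower, with a median of 0.48 and 9.85% of wild-type against 10.9% of mutant reads. The 13 genes of the mitochondrial genome held 0 higher and 0 lower, with a median of 0.09, from mt-nd5 at 3202 and 2091 RPM to mt-co2 at 2337 and 4395. Medians of respiratory subunits from the nucleus were above that, although the share higher in complex I, 10.7%, was below that of all kept genes. Complex IV had 6 of 15 higher and 0 lower (median 0.98), with the subunit 5A gene ENSDARG00000018119 at 47.0 and 167 (3.56-fold), though the abundant cox5b, a shared symbol, was equal at 1251 and 1253. Complex I had 3 of 28 higher and 0 lower (0.47), ATP synthase 3 of 17 and 0 (0.37), and complexes II and III 0 of 12 either way (0.19). Import had 7 of 21 higher and 1 lower (0.82), with the outer membrane receptor tomm70 at 25.7 and 154 (6.01-fold) and the small chaperone timm8a at 128 and 38.0 (3.37-fold lower). Mitochondrial ribosomal proteins had 12 of 58 higher (20.7%, also below all kept genes) and 3 lower (0.62). The tricarboxylic acid cycle was the one mitochondrial family below 0, at -0.20, with 5 of 22 lower and 2 higher, for example ogdha, a subunit of oxoglutarate dehydrogenase, at 78.2 and 26.4 (2.96-fold lower).

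Stress response genes had 11 of 34 higher (32.4%, against 26.3% of all kept genes) and 3 lower, with a median of 0.18. Genes of this family known to respond to DNA damage went both ways. The cell cycle inhibitor cdkn1a had 27.3 RPM in wild type and 176 in the mutant (6.46-fold higher, 6.04 to 6.91), the ubiquitin ligase gene mdm2 34.04 and 171 (5.03-fold), and sesn3, which restrains growth signalling, 13.5 and 82.9 (6.12-fold). Others were within 2-fold, with ccng1 at 422 and 737 and the death gene bax at 56.5 and 76.0. The lowest of the family, tp53inp1, a stress-induced gene that acts in autophagy and cell death, had 173 and 40.7 (4.25-fold lower). Immediate early genes, which respond within minutes to handling or signals, differed in direction: nr4a1 was higher (4.62-fold), fos had 2959 and 1377 (2.15-fold lower), jun 1455 and 1204, and atf3 391 and 395. Few replication genes reached the minimum, 8 of 47, among them pcna, the sliding clamp of DNA polymerases, at 87.2 and 201 (2.30-fold higher), mcm5 at 13.9 and 30.2 (2.17-fold) and rfc2 at 39.6 and 12.6 (3.15-fold lower).

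Of the NF-kB, chemokine and immune genes 28 of 122 were kept, 8 higher (28.6%) and 3 lower (10.7%), close to the 26.3% and 11.6% of all kept genes, with a median of 0.13. Both genes for the NF-kB inhibitor alpha, which NF-kB itself induces, were higher, nfkbiaa at 71.5 and 254 RPM (3.56-fold) and nfkbiab at 208 and 538 (2.59-fold). The antiviral membrane protein gene ifitm1 had 30.9 and 236 (7.64-fold higher). On the lower side the pentraxin crp3, an acute phase protein of the liver, had 146 and 32.6 (4.47-fold) and ebi3, a cytokine subunit, 291 and 93.1 (3.13-fold). The macrophage and neutrophil marker sums given above also differed, and their part in these values was not tested. Centred on the median of all genes the family had 7 higher and 8 lower.

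Transcription factors of hepatocytes and nuclear receptors had 6 of 25 higher (24%) and 2 lower (8%), near or below the 26.3% and 11.6% of all kept genes, with a median of 0.06. The minimum left out others of the 60 listed: 12 reached 10 RPM in wild type alone and 7 in the mutant alone. Among all listed genes these counts were 1637 and 1897. The gene hnf4a, at 31.6 and 6.82 RPM, also missed the minimum. The bile acid receptor nr1h4 was the lowest at 87.7 RPM in wild type and 15.3 in the mutant (5.71-fold), followed by prox1, a homeobox factor of liver development, at 63.1 and 24.5 (2.57-fold). The CCAAT-binding factors parted, with cebpa, which holds hepatocytes in their mature state, at 139 and 70.3 and cebpb, which acts in the acute phase and in regeneration, at 293 and 579. Both lay just inside 2-fold, on opposite sides. The orphan receptor nr4a1 was higher at 16.6 and 76.9 (4.62-fold).

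Cytoskeletal and surface genes took 2.84% of wild-type and 4.63% of mutant reads, with a median of 0.59. Of 111 genes 36 were higher (32.4%, against 26.3% of all kept genes) and 13 lower (11.7%, against 11.6%). Keratins, the intermediate filaments of epithelia, had 7 of 16 higher and 2 lower (median 0.80), and their sum was 14161 RPM in wild type and 27043 in the mutant. Of these krt4 alone had 7891 and 15476 (1.96-fold, just inside the limit), cyt1 1085 and 2584 (2.38-fold) and krt8 621 and 834. Since krt4, krt5 and krt91 are also skin markers, the skin, muscle and lens sum moved with them, and the part of skin cells was not tested. Muscle genes of that list differed in direction: pvalb3 had 0 RPM in wild type, which allows up to 0.0834, and 10.3 in the mutant, whereas ckma had 61.6 and 22.1, ckmb 80.9 and 11.6 and pvalb1 272 and 114, and with them ENSDARG00000037840 (skeletal actin) 305 and 77.2 (3.95-fold lower). Annexins and S100 proteins had 6 of 14 higher and 0 lower (0.73), with s100a10b at 105 and 383 (3.66-fold). Junction and matrix genes had 12 of 31 higher and 6 lower (0.53), from msn, which ties actin to the membrane, at 11.99 and 111 (9.25-fold higher) to the collagen gene col1a2 at 78.4 and 12.4 (6.35-fold lower). Without the marker genes of other cells and the keratin, muscle and matrix genes, 1020 of 3912 genes were higher and 449 lower.

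Some abundant genes were equal in both libraries. Among the 200 most abundant kept genes, those closest to 0 included ldhb, a lactate dehydrogenase, at 894 RPM in wild type and 892 in the mutant, tmbim6, an inhibitor of cell death in the endoplasmic reticulum, at 1016 and 1015, the ribosomal stalk gene rplp1 at 1838 and 1814, and ddx5, an RNA helicase, at 729 and 758. Their counting intervals lay within a few percent of equality. Genes at the edges of the rules show how little separates called from uncalled genes. Just inside the minimum was capn9, a calpain protease, at 10.01 in wild type, and just outside it were naa15 (ENSDARG00000030368), a subunit of an acetyltransferase, and ociad2, both at 9.98 in wild type. Just inside 2-fold higher lay nfatc3, at 10.04 and 20.1, and just outside it bahd1, at 11.96 and 23.9.

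The libraries at 7.5 dpf share none with those at 5.5 dpf and did not enter the minimum or the 2-fold calls at 5.5 dpf. At that stage 3888 of the kept genes had a ratio (more than 3 reads in at least 1 library), and 38.2% were higher and 25.9% lower in the mutant. Of these genes 659 had 3 reads or fewer in 1 library, which were set at 3 reads, so their ratios are bounds. Such bounds enter the shares and overlaps, the correlations across 3888 genes and the family medians at 7.5 dpf. Of the genes higher at 5.5 dpf 76.8% lay above 0 at 7.5 dpf, against 58.8% of all kept genes, and of those lower 67.3% lay below 0, against 41.2%. Higher at both stages were 586 genes, 55.5% of the 1055 at 5.5 dpf and 39.5% of the 1484 at 7.5 dpf. Lower at both were 234 genes, 50.4% of 464 and 23.3% of 1006. Opposite calls were made for 145 genes that were higher first and lower later and for 91 the other way. Across 3888 genes, which are not independent replicates, Pearson's r between the stages was 0.24 and Spearman's rho 0.30, and across the 2608 genes with 10 or more RPM in all 4 libraries 0.42 and 0.41.

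Family medians lined up more closely between the stages, with r of 0.71 and rho of 0.72 over 67 families, which share their 4 libraries. Cytochrome P450 genes had -1.55 at 5.5 dpf and -3.49 at 7.5 dpf, and inter-alpha-trypsin inhibitors and fetuins -1.71 and -3.29. The spliceosome had 1.07 and 2.15. At 7.5 dpf 42 of its 56 genes were higher and 2 lower, beside 38.2% and 25.9% of all kept genes with a ratio. Chaperones of the endoplasmic reticulum went from 0.66 to 3.53 and cytosolic and mitochondrial chaperones from 1.24 to 0.93. Single genes kept their side in many cases, such as gys2, with log2 ratios of -3.79 and -1.83, rpz5, with 4.33 and 4.79, and cyp2ad2, with -3.08 and -3.42. Others did not: cdkn1a had 2.69 and -0.76, crk 3.92 and -0.03, and krt4 0.97 and -0.82. Sterol synthesis enzymes were the family with the widest change of side, -1.47 at 5.5 dpf and 2.45 over the 7 genes with a ratio at 7.5 dpf.

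**Figure D5:**
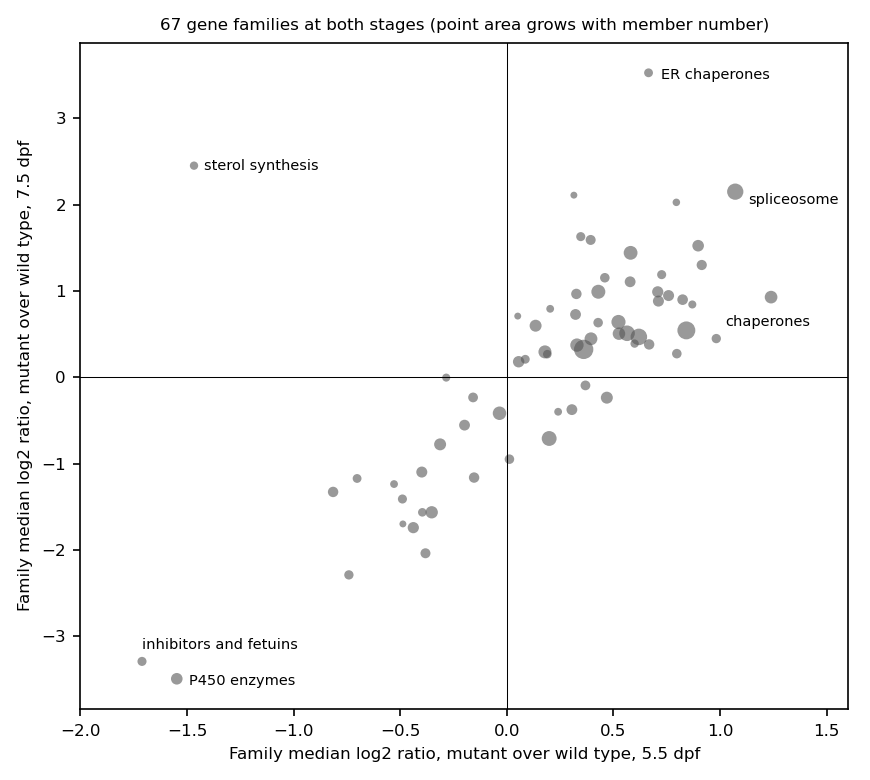
Median log2 ratio of mutant over wild type in each of 67 gene families at 5.5 dpf (x) and 7.5 dpf (y), with point area growing with the number of kept genes. P450 enzymes lie at -1.55 and -3.49, the spliceosome at 1.07 and 2.15, and sterol synthesis alone at -1.47 and 2.45.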

How the data were processed

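RNA of flow-sorted hepatocytes was sequenced in 4 libraries, 1 for each genotype at 5.5 and at 7.5 dpf. The submitters' processing notes name DESeq 1.16.0, HTSeq 0.6.0, TopHat2 2.0.12 and Bowtie2 2.2.3 but state no roles for them. For the genome build, the annotation and strand use, nothing is given in the sources used here. Reads of overlapping, antisense or near-identical genes may thus be shared, and 333 kept genes carry a symbol that another ID also has.

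The authors deposited, for each stage, reads per 1000000 counted reads (RPM, also called CPM) of both libraries with a log2 fold change, a p-value and an adjusted p-value, and for all libraries a table of RPKM, RPM divided by gene length in kilobases. The RPM of each gene came out as a whole number of reads, within a tolerance of 0.01, and these reads served the intervals. In the authors' deposited table all 4010 kept genes have an adjusted p-value under 0.05 (the highest is 0.0472), although there is 1 library per group, so those p-values were not used. Ratios were formed from the deposited RPM, and equalled the authors' log2 fold change to 2 decimals. Symbols matched 3481 of the 4010 kept genes, and 3812 have a description.

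The genes, the 67 families and the marker lists were chosen with earlier results of these data known, and some name patterns of families were edited after the files were seen, by name and not by value. Named by rule were the 10 most abundant genes, the 15 highest and 15 lowest ratios among genes with 100 RPM in 1 library, the 15 closest to no change among the 200 most abundant, the highest, lowest and most abundant gene of each family, genes alone on their side of 2-fold, paralog pairs with the widest gap, and genes next to the limits. Some genes that the rule names are not reported here. Other genes named in the text were chosen after their values were seen. Alternatives were other minimum levels, scalings, fold rules, a pseudocount of 1, the deposited RPKM, and, added after seeing the data, a set without markers of other cells and a count test. The latter used the recovered reads of all 4 libraries with a term for stage (edgeR 4.0.16 quasi-likelihood test, limma 3.58.1, R 4.3.3) and was tested on simulated data. Other computations used Python 3.11.15, numpy 2.4.6, pandas 2.3.3 and scipy 1.17.1. At this depth 3 reads, the limit that a count of 0 allows, correspond to 0.0834 RPM in wild type and 0.0825 RPM in the mutant at 5.5 dpf.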

Additional observations from a re-analysis of the deposited data

Results flagged for a closer look

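A few results stood on opposite sides in the mutant at 5.5 and at 7.5 dpf, with 1 library per genotype and stage, and the difference between the stages was not tested. The median log2 ratio of the sterol synthesis enzymes was -1.47 at 5.5 dpf and 2.45 at 7.5 dpf. At the later stage 7 genes had a ratio, of which 5 lay above 0 (a library at 0 was set at the limit of 3 reads), and wild-type levels were low: fdps had 0 RPM in wild type and 78.0 in the mutant, idi1 0.297 and 75.8, and cyp51a1, counted with the P450 genes, 0.108 and 72.5. Against these msmo1 had 136 and 31.3.

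The mitochondrial ribosomal protein gene zgc:171480 had a log2 ratio of 3.49 at 5.5 dpf and -2.69 at 7.5 dpf. The F-box gene fbxo8 had 3.29 and -4.79. For pum3, a nucleolar RNA-binding protein gene, the values were 3.28 and -1.35. All 3 were among the 15 highest ratios at 5.5 dpf.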

How the results depend on the processing

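The counts of higher and lower genes depended on the minimum level and on the scaling. With 20 RPM in both libraries 588 genes were higher and 299 lower of 2777, and with 100 RPM 90 and 74 of 820. A mean of 10 RPM gave 2192 and 1181 of 6006, and no minimum beyond 3 reads gave 2816 and 1767 of 8068. Median-ratio scaling gave 677 and 729, and a 4-fold rule 213 and 85. The median log2 ratio was 0.0623 with the minimum of 100, 0.46 with the mean of 10 and 0.0, by construction, with median-ratio scaling. Among genes higher at 5.5 dpf, 80.8% lay above 0 at 7.5 dpf when all 4 libraries had to hold 10 RPM. A pseudocount of 1 and totals without the 10 most abundant genes kept both counts within 1.5 times of 1055 and 464. The RPKM gave the same counts because gene length cancels in a ratio, so it is no check. Leaving out markers of other cells also kept them within 1.5 times. That setting retained 3912 of the 4010 genes, so it could change the counts little. The sign of the family median changed for 15 of 67 families with median-ratio scaling, for 10 of 63 with the minimum of 100 and for at most 4 under the other settings. The edgeR quasi-likelihood test over both stages called 0 genes higher and 0 lower of the 4010, and its single residual degree of freedom limits it. An unadjusted p under 0.05 was found for 252 genes, 68 higher and 184 lower in the mutant under the scaling of that test. Such a cutoff passes a share of 0.05 where no gene differs, so the 252 are not read as a result. Apart from that zero by construction, the cause of these differences was not tested. No paired analysis was possible because each group has 1 library, so the comparison at 5.5 dpf holds a single pair; the edgeR test above compared genotypes within stage over both stages. For the same reason no replicate could be left out.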

Other observations

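Among abundant genes outside the families, 172 had 300 or more RPM in at least 1 library, of which 29 were higher in the mutant and 26 lower. The share higher was below the 26.3% of all kept genes, and the share lower was above the 11.6%. The genes named below were picked after their values were seen. The RNA-binding protein gene ssb (La), which protects the ends of new polymerase III transcripts, had 45.4 RPM in wild type and 365 in the mutant (8.04-fold higher). The gene ENSDARG00000053227, described as hepcidin-2, a liver hormone that limits iron release, had 314 and 1979.7 (6.31-fold higher), and at 7.5 dpf 169 and 1051. The galectin gene lgals2b had 176 and 1114 (6.34-fold higher). The segregase vcp, which pulls ubiquitin-tagged proteins out of complexes, had 396 and 1103 (2.79-fold higher).

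On the lower side, the carboxylesterase gene ces2a had 6779.7 RPM in wild type and 1695 in the mutant (4.00-fold lower). The plasma protease gene habp2 had 466 and 95.6 (4.87-fold lower). An HMG-CoA synthase gene, ENSDARG00000052738, had 457 and 154 (2.97-fold lower).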
